A study of Mus musculus with 5 samples.

Results

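In the week 2 ta-activated library, 68 of 2895 cells carried granzyme C RNA (Gzmc) at a level that set them apart from all other cells of the culture. The ta-activated ILC2s are type 2 innate lymphoid cells (ILC2s) that were sorted from the lungs of tumour-carrying mice and then activated in culture. A cell was taken as Gzmc-high where it held at least 20 Gzmc UMIs (unique molecular identifiers, each standing for 1 captured RNA molecule) per 10000 of its UMIs. Cells also had to show at least 200 genes and under 5% mitochondrial counts. The 68 cells made up 2.35% of the kept cells of the library (exact Clopper-Pearson 95% interval 1.83 to 2.97%) and were set beside 2543 cells with no Gzmc UMI. The remaining 284 cells held a few Gzmc UMIs. The whole series held 16533 kept cells.

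The study sequenced 5 libraries with the 10x Genomics 3' chemistry, 1 for each combination of treatment and week: naïve, ta-non-activated at weeks 2 and 3, and ta-activated at weeks 2 and 3. All animals were WT C57BL/6 mice, female and 4 to 8 weeks old by the study's methods, and 5 mice were used per group. Tumour-carrying mice had been injected s.c. with TC1 cells, a transformed lung epithelial line of the same strain, and control mice with vehicle. Naïve and ta-non-activated ILC2s were sequenced fresh, while ta-activated ILC2s first spent 7 days with rhIL-2, rmIL-33 and TSLP at 10 ng/mL each. Before any culture the cells had been sorted as Lin- ST2+ CD127+ Thy1.2+ CD45+, with a lineage cocktail that included antibodies to CD3, CD4, CD8α, TCRβ, NK1.1, CD11b, CD11c, Ly-6G/C and TER119. The gate therefore acted on surface protein a week before the RNA of the cultured cells was read. With 1 library per condition and week there is no replicate of the week 2 culture, so no difference between groups of cells carries a p-value, and cells of 1 library are not replicates.

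Natural killer (NK) cells and type 1 innate lymphoid cells (ILC1s) kill target cells by releasing granules that hold perforin, which opens the target membrane, and granzymes, proteases that act inside the target. They sense targets through activating receptors that signal by adaptor proteins such as Tyrobp and Fcer1g. Both produce interferon gamma, under the transcription factor Tbx21 and, in NK cells, also Eomes. ILC2s depend instead on Gata3, respond to IL-33 and TSLP from damaged epithelium, and produce Il5 and Il13, which drive eosinophil and mucus responses. Granzyme C is a mouse granzyme encoded in a cluster of related genes next to Gzmb and is best known from activated cytotoxic lymphocytes.

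The threshold fell in an empty stretch of the Gzmc distribution. The lowest members held 33.1, 33.5 and 34.9 Gzmc UMIs per 10000, and the highest cells outside held 10.95, 9.13 and 8.12. Of the members, 4 were shallow cells of 503 to 1147 UMIs that passed on 2 to 4 Gzmc UMIs each, while the other 64 held at least 44. The median member held 280 per 10000 and the highest 850, with quartiles at 145 and 428. Across the 68 cells Gzmc took 2.74% of all UMIs, and these cells held 55723 of the 56161 Gzmc UMIs of the library (99.2%). Of the 284 cells below the threshold, 244 had a single Gzmc UMI. Single UMIs of so abundant a transcript can come from free RNA, which applies also to the 4 shallow members, and the cells below the threshold were left out of the comparison.

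**Figure D1:**
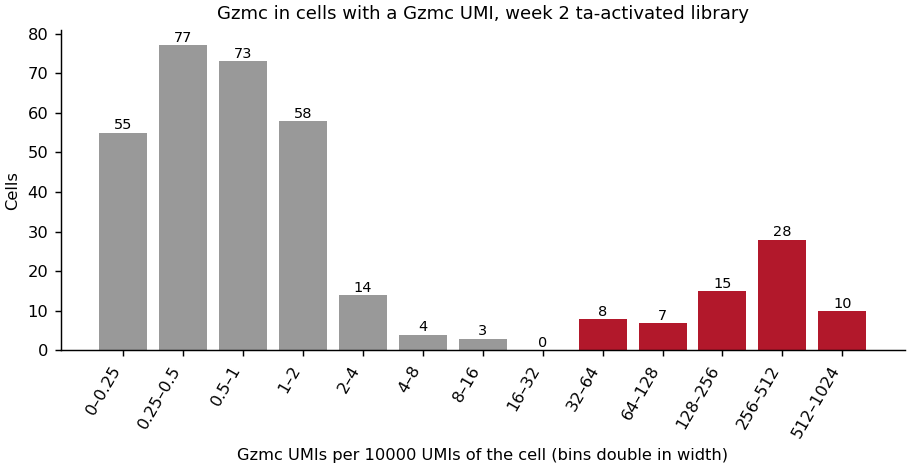
Number of cells (vertical axis) by Gzmc UMIs per 10000 UMIs of the cell (horizontal axis, bins that double in width) for the 352 cells with any Gzmc UMI. Red bars are the 68 Gzmc-high cells and grey bars the 284 cells below the threshold, and no cell fell between 16 and 32.

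Gzmc-high cells were deeper than the cells they were compared with. Their median was 21570 UMIs (503 to 107808) and 4226.5 genes, against 12781 UMIs and 3085 genes in cells with no Gzmc UMI. Mitochondrial shares had medians of 3.41% and 3.20%. Of the 68 cells, 64 reached 2000 UMIs, and the other 4 all held under 100 Gzmc UMIs per 10000. Scrublet, a doublet caller, marked 0 cells of this library and its calls were not used. By its scores, 4 of the 68 cells (5.88%) were among the top 6% of the library, against 6.13% of cells with no Gzmc UMI. Doublet formation was not tested further, and doublets were not removed. The members shared 1 barcode with the naïve library and 0 with the other 3.

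The rule found almost no such cell elsewhere. Under the same limits 0 of 6392 naïve cells, 0 of 1823 week 2 ta-non-activated cells and 0 of 3822 week 3 ta-activated cells passed. A count of 0 is taken here as allowing up to 3 cells of the total, which is a share of up to 0.0469%, 0.165% and 0.0785%. Of 1601 ta-non-activated cells of week 3, 1 passed, at 20.5 Gzmc UMIs per 10000, just over the threshold. Summed over all kept cells, Gzmc stood at 979 CPM (UMIs of the gene scaled to a total of 1000000) in the week 2 culture (exact Poisson 95% interval 971 to 987). The naïve library had 2.46 CPM, the week 2 and week 3 ta-non-activated libraries 1.38 and 1.49 CPM, and the week 3 culture 1.07 CPM. The week 3 culture was activated in the same way, so presence of these cells differed between the 2 cultures. Since each is 1 library of pooled mice, week, mice and culture cannot be told apart.

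The levels that follow are in CPM, from counts summed over the cells of a group, and ratios are log2 of (CPM + 1) in Gzmc-high cells over (CPM + 1) in cells with no Gzmc UMI. For genes near 0 CPM in the compared cells the ratio depends on the 1 CPM added, and values with 5 CPM are given under processing. Intervals are exact Poisson 95% intervals, and they cover counting error only. The rule chose these cells by their RNA, so all such differences describe the chosen cells and none is a test. Of 5287 genes with a mean level of at least 20 CPM over both groups, 223 were at least 2-fold higher in Gzmc-high cells (4.22%) and 207 at least 2-fold lower (3.92%), and the median log2 ratio was 0.02. Of all 16253 genes with a UMI in either group, 863 were at least 2-fold higher (5.31%) and 835 lower (5.14%), with a median of -0.03. A gene could pass the level limit through the Gzmc-high cells alone, as 321 of the 5287 did with under 20 CPM in the compared cells. Of the 223 higher genes, 136 were of this kind. Counts and medians of gene groups below therefore cover all measured members unless the level limit is named. A level summed over cells does not separate more cells with a transcript from more transcripts per cell. Cells with a UMI are therefore given beside many, though not all, of the levels that rest on few cells.

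The 4 markers of the cells did not all behave alike. Gzmc (chr14:56231441-56234656, minus strand, GRCm38) stood at 27401 CPM (27174 to 27630) and by the rule at 0 in the compared cells. Gzmb, whose product granzyme B starts apoptosis in target cells, lies next to it at chr14:56258838-56262260 on the same strand and stood at 6173 CPM (6065 to 6282) against 1098 (1088 to 1107), a log2 ratio of 2.49. Single cells ranged from 0 to 380 Gzmb UMIs per 10000 with a median of 31.6, and 63 of 68 had a Gzmb UMI. Gzmb was thus not particular to these cells: 338 cells with no Gzmc UMI were Gzmb-high by the same limit of 20 per 10000, and they stood at 9280 CPM, a level that this choice fixes. Those Gzmb-high cells, with a median of 12051.5 UMIs, serve below as a second comparison.

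Ifitm1, an interferon-inducible membrane protein that restricts virus entry (chr7:140967221-140969825, plus strand), stood at 4808 CPM (4713 to 4904) against 262 (257 to 267), a log2 ratio of 4.19. It was detected in 60 of 68 cells, with a median of 52.5 per 10000 and a highest value of 185.5. The Gzmb-high cells without Gzmc had 526 CPM. Xcl1, a chemokine that NK cells and CD8 T cells use to attract cross-presenting dendritic cells (chr1:164931644-164935527, minus strand), stood at 457 CPM (428 to 488) against 0.361 (0.210 to 0.577), a log2 ratio of 8.40. It was found in 43 of 68 cells and reached 64.3 per 10000, and 17.7% of its UMIs came from 1 cell. All 4 markers were present in 40 of the 68 cells, 3 in 21 cells, 2 in 4 cells and Gzmc alone in 3.

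The 250 bases before the RefSeq start site are printed for Gzmc, Gzmb and Xcl1, 3 of the 4 marker genes that were higher in these cells together. The window of Ifitm1, the fourth, lies wholly inside the gene as GENCODE annotates it and is not printed, and 5 bases of the Xcl1 window lie inside its gene. Each is in the direction of the gene, in lower case, from RefSeq on GRCm38.p6: Gzmc at chr14:56234658-56234907, Gzmb at chr14:56262335-56262584 and Xcl1 at chr1:164935523-164935772, all on the minus strand. Capitals mark TGTGGT, the core that Runx factors bind, and GGTGTGA, a T-box core, each searched on both strands, and no match overlapped another.
Gzmc: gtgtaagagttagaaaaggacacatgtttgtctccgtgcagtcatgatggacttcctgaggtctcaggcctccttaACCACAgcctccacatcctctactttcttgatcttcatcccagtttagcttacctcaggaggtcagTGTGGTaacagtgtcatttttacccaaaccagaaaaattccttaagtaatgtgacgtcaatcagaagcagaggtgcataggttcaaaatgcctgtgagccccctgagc
Gzmb: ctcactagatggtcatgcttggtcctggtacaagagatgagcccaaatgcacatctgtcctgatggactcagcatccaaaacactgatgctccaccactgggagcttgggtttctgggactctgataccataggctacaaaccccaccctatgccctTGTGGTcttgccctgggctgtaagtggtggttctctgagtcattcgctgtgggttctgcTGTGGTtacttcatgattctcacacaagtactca
Xcl1: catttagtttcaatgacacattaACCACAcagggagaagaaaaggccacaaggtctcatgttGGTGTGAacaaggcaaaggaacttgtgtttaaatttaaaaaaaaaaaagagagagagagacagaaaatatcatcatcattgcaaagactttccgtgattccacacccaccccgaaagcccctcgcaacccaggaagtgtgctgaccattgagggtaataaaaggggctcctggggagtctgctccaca
Gzmc and Gzmb each held 2 Runx matches and Xcl1 held 1, where 14.1% of 32851 RefSeq windows of this length hold at least 1. Xcl1 also held the T-box match, found in 3.33% of windows. TTCNNNGAA, a STAT core present in 7.02% of windows, was in none of these. The Ifitm1 window held 0 matches of any of the 3 motifs. These are matches of letters only. Runx3, a factor needed for cytotoxic lymphocytes, was at 323 CPM in Gzmc-high cells against 107, while Tbx21 was near the floor, as given below.

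Granzymes other than Gzmb and Gzmc each stood under 10 CPM. Gzma stood at 2.46 CPM (0.798 to 5.74) against 5.52, and Gzmd and Gzme, of the same cluster as Gzmc, at 4.92 and 9.83 CPM, each from a single cell. Gzmf, Gzmg, Gzmk and Gzmn had no UMI, and Gzmm had 1. The granzymes of chromosome 14 are close paralogs, so reads that match several of them could have been split or dropped in counting, and levels of Gzmd to Gzmn are uncertain. Of 26 granule genes, 12 were at least 2-fold higher and 0 lower, with a median log2 ratio of 0.41. Past the level limit 10 of 16 were higher, and 7 of these had under 20 CPM in the compared cells.

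Perforin (Prf1) stood at 55.6 CPM (45.8 to 66.8) against 5.75, in 28 of 68 cells, which is low beside Gzmb and Gzmc. Nkg7, a granule membrane protein needed for degranulation, stood at 414.5 CPM against 4.58, a log2 ratio of 6.22. Ctsw, a cathepsin of cytotoxic cells, stood at 462 CPM against 11.1, and Ctsc, which activates granzymes by cutting their propeptide, at 104 against 38.1. The granzyme B inhibitors Serpinb9 and Serpinb6b stood at 47.2 and 61.0 CPM against 4.39 and 5.73. Among genes of granule packing and release, Rab27a, a GTPase that docks granules, stood at 44.7 CPM against 10.99, while Srgn (1774 against 1964 CPM), Lamp1 (84.6 against 116), Unc13d (21.1 against 27.1), Stx11 (50.2 against 61.5) and Stxbp2 (47.7 against 41.8) were within 2-fold. Fasl had no UMI, and Tnfsf10, the other death ligand on the list, stood at 71.3 CPM against 29.7.

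NK and ILC1 receptors and adaptors held the most genes that were higher of all lists. Of 37 genes in the matrix, 23 were at least 2-fold higher and 1, the chemokine receptor Cxcr6, lower (391 against 846 CPM), with a median log2 ratio of 1.51. Past the level limit 13 of 18 were higher, and 11 of these had under 20 CPM in the compared cells. The adaptors Fcer1g and Tyrobp, which carry the signals of activating NK receptors, stood at 1450 CPM (1398 to 1503) against 13.9 and at 319 CPM (295 to 344) against 0.467. Fcer1g was in 64 of 68 cells and Tyrobp in 39.

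Klrd1, the CD94 chain that pairs with NKG2 receptors, stood at 428 CPM (400 to 457) against 0.127 (0.0467 to 0.277), a log2 ratio of 8.57. The compared level rested on 6 UMIs. With 5 CPM added in place of 1 the ratio was 6.40, and against all cells under the threshold it was 7.80. Klrk1, the stress ligand receptor NKG2D, stood at 251 CPM against 1.55. Cd160, a receptor for Tnfrsf14 on cytotoxic lymphocytes, stood at 324.5 CPM against 0.806 and was in 60 of 68 cells. Klrd1 UMIs were in 49 cells and Klrk1 UMIs in 53, so most but not all members carried each receptor.

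The group also held Il12rb2, the signalling chain of the IL-12 receptor (178 against 0.403 CPM), Cd244, a SLAM family receptor also called 2B4 (127.9 against 0.785), and Klrb1f (119.5 against 0.849). Ncr1, the NKp46 receptor, which is found on NK cells and ILC1s but not on them alone, stood at 57.0 CPM (47.1 to 68.4) against 0.0424. Its UMIs were in 36 of 68 cells. The inhibitory receptors Kir3dl1 and Kir3dl2, which are outside the lists, stood at 121.5 and 56.1 CPM against 0.127 and 0. Klrc1, Klrc2, Klre1 and Sh2d1b1 missed the level limit at 16.2 to 31.0 CPM. Cells with no Gzmc UMI held at most 0.0424 CPM of each. Klrc1 UMIs were in only 7 of 68 cells, and 51.0% of them came from a single cell. Klre1 UMIs were in 14 cells, with 23.6% from a single cell. Klrc2 UMIs were in 19 cells and Sh2d1b1 UMIs in 37. The Klr and Kir genes are families of close copies, so the split of reads among members is uncertain.

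Other NK genes were nearly absent. Klrb1c, which encodes the NK1.1 antigen used in the lineage gate, stood at 5.90 CPM in 7 cells, and Itga1, the ILC1 integrin CD49a, at 1.97 CPM in 4. The Ly49 receptors Klra1, Klra3, Klra4, Klra7, Klra8 and Klra9 had no UMI in Gzmc-high cells, where a count of 3 would be 1.48 CPM. Itga2, the NK integrin CD49b, stood at 10.8 CPM against 19.9.

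The type 1 factors and cytokines divided. Ifng, the cytokine that defines type 1 lymphocytes, stood at 259 CPM (237 to 282) against 0.0636, with UMIs in 42 of 68 cells and up to 27.3 per 10000. Its master regulators did not stand beside it: Tbx21 had 10 UMIs in 9 cells (4.92 CPM, 2.36 to 9.04) and Eomes 5 UMIs in 4 cells (2.46 CPM, 0.798 to 5.74). Both were lower still in cells with no Gzmc UMI, at 0.106 and 0 CPM. Txk, a kinase of type 1 and NK cells, stood at 76.2 CPM against 2.82, and Hopx at 97.4 against 25.7. Ccl5, a chemokine that NK cells usually express at a high level, stood at 3.44 CPM against 46.4. Of 15 type 1 genes 9 were at least 2-fold higher and 2 lower, Ccl5 and Ikzf3, with a median log2 ratio of 1.58.

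To ask how far single cells carried these genes at equal depth, each cell with at least 2000 UMIs was thinned to 2000. UMIs of at least 2 of 12 NK and ILC1 genes were found in 53 of 64 Gzmc-high cells (82.8%, 71.3 to 91.1%), in 6 of 2476 cells with no Gzmc UMI (0.242%) and in 0 of 330 Gzmb-high cells without Gzmc, which allows a share of up to 0.909% (3 cells). Among cells with a few Gzmc UMIs the share was 4 of 282 (1.42%). Without thinning the Gzmc-high share was 98.4% and that of cells with no Gzmc UMI 0.808%. Gzmb-high cells thus carried the granzyme without the receptors: Klrd1 stood there at 0.191 CPM, Fcer1g at 16.8 and Cd160 at 0.

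**Figure D2:**
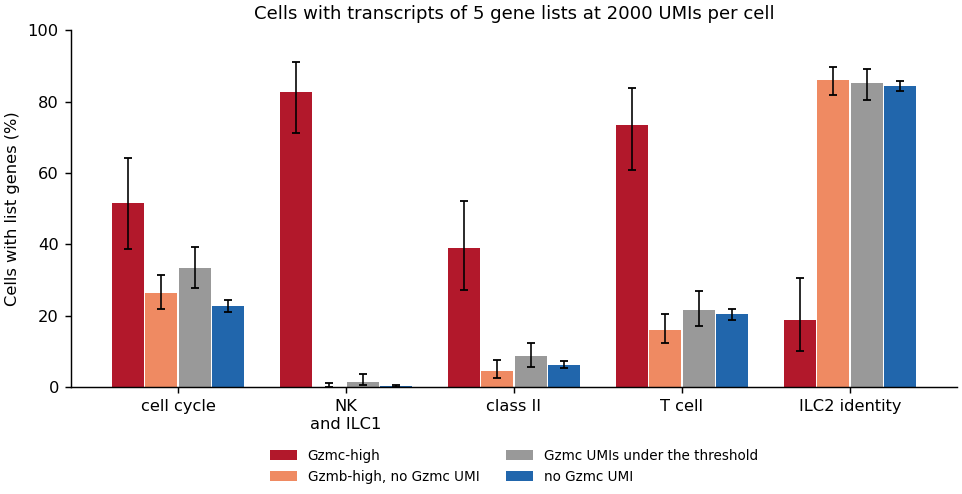
Share of cells (vertical axis, %) with UMIs of 5 gene lists after thinning to 2000 UMIs, for 64 Gzmc-high cells, 330 Gzmb-high cells with no Gzmc UMI, 282 cells with Gzmc below the threshold and 2476 cells with no Gzmc UMI. Bars are shares, error bars are exact Clopper-Pearson 95% intervals, the Gzmb-high cells are part of the cells with no Gzmc UMI, and NK and ILC1 genes are at 82.8% in the Gzmc-high cells and at or under 1.42% in the other groups.

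Part of the NK genes were held almost wholly by these cells. Of the 37 receptors and adaptors, 11 had at least 90% of their UMIs in the library here and 19 at least 50%. The 68 cells contributed 3.55% of the UMIs of the library and held 97.9% of the Xcl1 UMIs, 97.2% of Ifng, 96.7% of Ncr1, 96.1% of Tyrobp, 94.5% of Klrd1 and 90.9% of Cd160. Fcer1g was at 77.5%, while list genes also found in the other cells were far lower, with Il18r1 at 8.65%, Il2rb at 7.35%, Hcst at 5.78%, Cd226 at 4.83%, Itga2 at 2.03% and Cxcr6 at 1.70%. Of all 16253 genes with a UMI in either group, 130 had at least 90% of their UMIs there and 323 at least 50%. Of the 5287 genes at or above the level limit, the counts were 14 and 44. For Ifitm1 the share was 39.8% and for Gzmb 16.8%. For Gata3 it was 1.09%, below the share of all UMIs.

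Among genes with UMIs in at least 25% of the thinned cells of the higher group, the largest ratios outside the lists belonged to Scin, an actin-severing protein (479 against 0.849 CPM, a log2 ratio of 8.02), Rasl11a, a small GTPase (390 against 2.08), Kir3dl1 (6.76 on the log2 scale, levels given above) and Cd9, a tetraspanin (173 against 1.29). Genes named after their values were seen include Ccnd1, which encodes the G1 cyclin D1 and stood at 120.5 CPM against 0.403 in 41 of 68 cells, and Cd96, an NK and T cell receptor for Cd155 (98.8 against 1.25 in 55 cells). Some ratios rested on few cells. Ccl1 stood at 392 CPM against 0.318, but 93.1% of its UMIs came from 1 cell. Il22, a cytokine of type 3 innate lymphoid cells, stood at 494 CPM against 4.79 with 97.8% of its UMIs in 3 cells. Ahr, a receptor that those cells share with other innate lymphoid cells, stood at 65.4 against 6.05 in 47 cells.

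T cell genes were mixed. Cd3g, a signalling chain of the T cell receptor complex, stood at 3218 CPM (3140 to 3297) against 112, a log2 ratio of 4.83, and was found in 53 of 68 cells with a median of 33.6 per 10000. The chains it needs at the surface were far lower. Cd3d stood at 88.0 CPM against 8.19, Cd3e at 5.41 against 4.39 with UMIs in 3 cells, and the receptor alpha constant gene Trac at 2.46 against 4.39. Trbc1 and Trbc2, the beta constant genes, stood at 123 and 386 CPM against 95.5 and 309, within 2-fold. Cd4, Cd8a, Cd8b1, Cd5, Themis and Foxp3 had no UMI.

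The gamma constant genes Tcrg-C1, Tcrg-C2 and Tcrg-C4 stood at 95.9, 22.1 and 136 CPM against 37.3, 1.70 and 37.2, with the delta constant gene Trdc at 2.46 against 1.70. The Trbc pair and the Tcrg-C genes are close copies, and reads may be split among them. The signalling kinase Lck stood at 82.1 CPM against 7.49, and Tcf7, a factor of T cells and of NK and ILC precursors, at 62.5 against 1.51. Of 28 T cell genes 9 were at least 2-fold higher and 0 lower, with a median log2 ratio of 0.34. After thinning, at least 2 of 10 receptor-complex genes were seen in 47 of 64 cells (73.4%, 60.9 to 83.7%), against 20.3% of cells with no Gzmc UMI and 16.1% of Gzmb-high cells. Cd3g was the most abundant gene of this list.

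Class II genes, which present extracellular antigen to CD4 T cells, were higher in a subset of the cells. H2-Aa, H2-Ab1 and H2-Eb1, the chains of the presenting molecules, stood at 244 CPM (223 to 266), 224 (204 to 245) and 210.5 (191 to 231). The compared cells held 9.14, 45.9 and 11.7 CPM. Cd74, the invariant chain, stood at 699 CPM against 191. H2-DMa and H2-DMb1, which load peptide, stood at 49.2 and 34.9 CPM against 21.5 and 6.85. Of 15 class II genes 7 were at least 2-fold higher and 1, the cathepsin Ctss, lower, with a median log2 ratio of 0.58.

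Ciita, the coactivator that switches on class II genes, stood at 4.43 CPM (2.02 to 8.40) against 2.65. UMIs of at least 1 of the 3 H2 genes were left after thinning in 25 of 64 cells (39.1%, 27.1 to 52.1%), in 6.22% of cells with no Gzmc UMI and in 4.55% of Gzmb-high cells. Before thinning the first 2 shares were 70.3% and 27.3%. Of 12 dendritic and myeloid markers 2 were at least 2-fold higher and 0 lower. No UMI was found in the Gzmc-high cells for 8 of the 12, namely Itgax, Flt3, Xcr1, Clec9a, Lyz2, Csf1r, Adgre1 and S100a8. Clec9a, Lyz2 and Csf1r also had no UMI in the rest of the library. The summed level of the 12 was 383 CPM against 386, of which Cst3, a broadly expressed protease inhibitor, made up 324. Zbtb46 had 8 UMIs, in 5 Gzmc-high cells. Batf3, a factor of dendritic and activated lymphoid cells, stood at 53.1 CPM against 2.40. The B cell genes Cd79a and Ms4a1 had no UMI, and Cd79b stood at 1.48 CPM against 14.9.

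**Figure D3:**
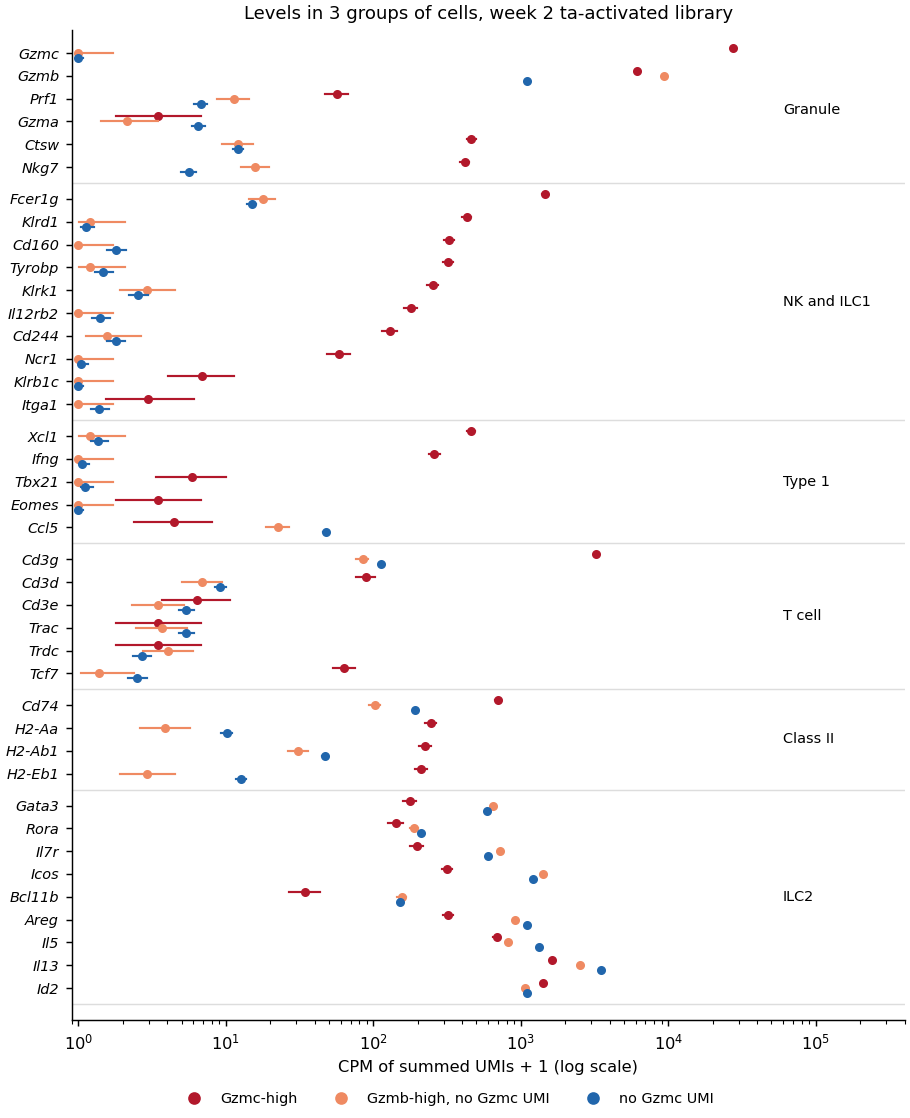
Levels of 40 genes (vertical axis, grouped by list) in CPM of summed UMIs plus 1 (horizontal axis, log scale) in Gzmc-high cells, Gzmb-high cells with no Gzmc UMI and all cells with no Gzmc UMI. Dots are levels and lines exact Poisson 95% intervals; most NK and ILC1 genes lie to the right in Gzmc-high cells alone, Gzmb lies furthest right in Gzmb-high cells, and most ILC2 genes lie to the left in Gzmc-high cells.

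ILC2 identity genes were lower as a list, though not without exceptions. Of 31 genes 14 were at least 2-fold lower and 3 higher, and the median log2 ratio was -0.95. All 22 that passed the level limit had at least 20 CPM in the compared cells, and 10 of them were lower. Gata3, the master regulator, stood at 175 CPM (157 to 194) against 592 (585 to 599), a log2 ratio of -1.75, and was found in 39 of 68 cells. Bcl11b, which keeps ILC2 identity, stood at 33.4 CPM against 151, and Rora, which ILC2 development needs, at 141 against 208. Il7r, whose product CD127 was part of the sort, stood at 196 CPM against 594.5, and the costimulator Icos at 314 against 1199. With each cell weighted equally in place of sums, some genes were lower still. Log2 ratios were -2.21 in place of -1.75 for Gata3, -3.495 in place of -2.14 for Bcl11b and -2.48 in place of -1.78 for Areg.

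The type 2 products showed the same order. Il13 stood at 1627 CPM (1572 to 1683) against 3474 (3457 to 3491), Il5 at 685 against 1328, Il4 at 9.83 against 40.5 and Areg, an epithelial repair factor, at 321 against 1104. Il13 was found in 35 of 68 cells, with 58.0% of its UMIs in 3 cells, and 70.9% of the Il5 UMIs came from 3 cells. Il1rl1, which encodes ST2, stood at 81.1 CPM against 44.1 but in 7 cells. The sum over cells placed Il9, Csf2 and Thy1 at least 2-fold higher. All 531 Il9 UMIs came from 1 cell and 64.2% of the Csf2 UMIs from 3, whereas Thy1, whose product was also part of the sort, stood at 315 CPM against 133 with UMIs in 61 cells.

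Id2, a factor that all innate lymphoid cells and NK cells require, stood at 1418 CPM against 1105 with UMIs in 67 of 68 cells. The Gzmb-high cells without Gzmc kept ILC2 genes near the level of the compared cells, with Gata3 at 645 CPM, Icos at 1404 and Il7r at 723. Outside the lists, the genes with the most negative ratios among broadly detected ones were Ly6c1, a surface antigen (45.2 against 584 CPM, a log2 ratio of -3.66, or -4.795 with cells weighted equally), Cyp11a1, the enzyme that starts steroid synthesis (102 against 708), and the motor protein Myo6 (40.8 against 276). The lipid mediator receptors Cysltr1 and Ltb4r1 stood at 184 and 97.4 CPM against 674 and 325.

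At 2000 UMIs, at least 2 of 6 ILC2 genes were seen in 12 of 64 Gzmc-high cells (18.8%, 10.1 to 30.5%), in 84.4% of cells with no Gzmc UMI and in 86.1% of Gzmb-high cells. No cell type that lacks ILC2 genes was identified in this library to set the level of free RNA for them. Setting the NK and ILC2 lists against each other, 47 of the 64 cells had NK genes without ILC2 genes, 6 had both, 6 had ILC2 genes only and 5 had neither. Among 2476 cells with no Gzmc UMI, 2090 had ILC2 genes only, 6 NK genes only, 0 both and 380 neither. Before thinning 60.9% of the 64 Gzmc-high cells met the ILC2 count, against 97.2% of cells with no Gzmc UMI. Without a level of free RNA for these genes, this share does not show how many Gzmc-high cells made the transcripts themselves.

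Cell cycle genes were modestly higher. Of 25 S phase genes 2 were at least 2-fold higher and 0 lower (median log2 ratio 0.46), and of 30 G2/M genes 1 was higher and 0 lower (median 0.43). Tyms, a thymidylate synthase, stood at 125 CPM against 50.8, Cdc45, a replication factor, at 34.4 against 16.4 and Aurkb, a mitotic kinase, at 73.3 against 36.0. Mki67 stood at 191 CPM (172 to 211) against 142 (138 to 145). UMIs of at least 2 of 12 cycle genes were found in 33 of 64 Gzmc-high cells (51.6%, 38.7 to 64.2%), against 22.6% (20.98 to 24.3%) of cells with no Gzmc UMI and 26.4% of Gzmb-high cells. Unthinned, the first 2 shares were 78.1% and 42.2%.

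Klrd1, Fcer1g and Gzmb stood at similar levels in cycling and other members. Klrd1 stood at 415.5 CPM in 33 cycling members and 446 in 31 others, Fcer1g at 1380 and 1547, and Gzmb at 6329 and 5977. NK genes at 2000 UMIs were counted in 28 of 33 and in 25 of 31. Among cells with fewer than 2 of the 12 cycle genes, the log2 ratio was 7.75 for Xcl1 and 8.17 for Tyrobp. Over all cells these ratios were 8.40 and 7.77. Gata3 stood at 145 and 214 CPM. Class II genes were counted in 10 of 33 cycling members and in 15 of 31 others.

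Other pathways differed in direction. Of 12 interferon-induced genes all passed the level limit, with 2 at least 2-fold higher, 3 lower and a median log2 ratio of -0.36. Cxcl10 stood at 403 CPM against 49.0, with 67.6% of its UMIs in 3 cells, and Ifit1 at 130 against 285. Ifitm2 and Ifitm3, the nearest relatives of Ifitm1, stood at 1199 and 1694 CPM against 319 and 865, with log2 ratios of 1.91 and 0.97, and reads of these close copies may be shared. Of 7 IFITM genes 3 were at least 2-fold higher, with Ifitm6 the third at 33.4 CPM against 3.73, and 0 lower (median log2 ratio 0.97). All 68 Ifitm6 UMIs came from 1 cell. Of 8 ILC3 and type 17 genes 4 were higher and 0 lower (median 0.97), namely Il22 and Ahr, given above, and Ccr6 and Il1r1. The latter stood at 12.8 and 3.44 CPM against 2.33 and 0.679, with UMIs in 11 and 5 of 68 cells. Of 10 genes of IL-2 reception and feedback, 2 were at least 2-fold higher, Il2rb (169 against 77.1 CPM) and the survival factor Bcl2 (248 against 43.2), and 3 lower, Socs3, Pim1 and Osm. Of 12 activation and checkpoint genes 6 passed, with Lag3 at 48.7 CPM against 2.80 and Tnfrsf4 at 11.3 against 28.8. Of 7 mast cell and basophil genes 1 was at least 2-fold higher and 1 lower, the latter Mcpt8 at 3.44 CPM against 126.5. Gata2 had 20 of its 22 UMIs in the Gzmc-high cells, all from 1 cell. Of 6 epithelial and endothelial genes only Epcam passed, at 20.2 CPM against 22.9.

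The members varied along the level of Gzmc itself. Split at 100 and 300 Gzmc UMIs per 10000, they fell into 11, 27 and 30 cells with median depths of 13283, 27260 and 21570 UMIs. From the lowest to the highest range Ifitm1 stood at 1114, 4068 and 7168 CPM and Gzmb at 2494, 4462 and 9733 CPM. Xcl1 stood at 43.2, 231 and 900 CPM and Klrd1 at 59.9, 329 and 694. Cd3g followed with 525.5, 2945 and 4606 CPM. All 5 genes were ordered as Gzmc was, while Prf1, at 76.5, 44.8 and 60.9 CPM, was not, and its UMIs in the lowest range all came from 2 cells.

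ILC2 and class II genes were highest in the lowest range in the sums over cells, but that rested on a few cells. Gata3 stood at 339, 222 and 53.1 CPM, Il5 at 1843, 840 and 41.4, Il13 at 4467, 1360 and 852, and Il2ra, the alpha chain of the IL-2 receptor, at 2634, 883 and 88.1. Cd74 stood at 1567, 671 and 395 CPM and H2-Aa at 549, 238 and 132. The 2 deepest cells of the lowest range, with 107808 and 87049 UMIs, held 64.8% of its UMIs, 94.3% of its Il13 and 97.1% of its Il5. Without them, a setting chosen after seeing the data, the lowest range stood at 728 CPM for Il13 and 151 for Il5, below the middle range. In the highest range 96.5% of the Il13 UMIs came from 1 cell, and Il13 stood at 31.4 CPM without it. Without the 3 deepest cells of each range Gata3 stood at 105, 204 and 60.9 CPM and Il2ra at 75.2, 837 and 82.3, so their levels in the lowest range also came from those cells.

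The class II order rested on other cells. In the lowest range 4 members with class II genes and no UMI of Klrd1, Xcl1 or Ifng, described below, held 92.1% of the H2-Aa UMIs and 86.2% of those of Cd74. Without such cells, 5 in all, H2-Aa stood at 54.9, 238 and 111 CPM and Cd74 at 274, 671 and 344. Between the middle and the highest range the summed levels of Gata3, Il2ra, Cd74 and H2-Aa were lower in the highest, also without the 3 deepest cells of each. By the median cell Gata3 stood at 0.367 and 0.352 UMIs per 10000 there, which is hardly apart. The genes that followed Gzmc kept the lowest range below the middle one without its 2 deepest cells, at 936 CPM for Ifitm1, 1427 for Gzmb, 28.4 for Xcl1, 104 for Klrd1 and 586 for Cd3g. The median cell held 0, 42.7 and 38.2 Cd3g UMIs per 10000 over the 3 ranges, so by the median cell Cd3g was not highest in the highest range. By cells, the ILC2 count was met by 4 of 7, 7 of 27 and 1 of 30 cells, the class II count by 6 of 7, 11 of 27 and 8 of 30, and the cell cycle count by 2 of 7, 13 of 27 and 18 of 30. The 3 ranges share the library and were cut on the value they are ordered by, and the lowest held the 4 cells under 2000 UMIs.

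**Figure D4:**
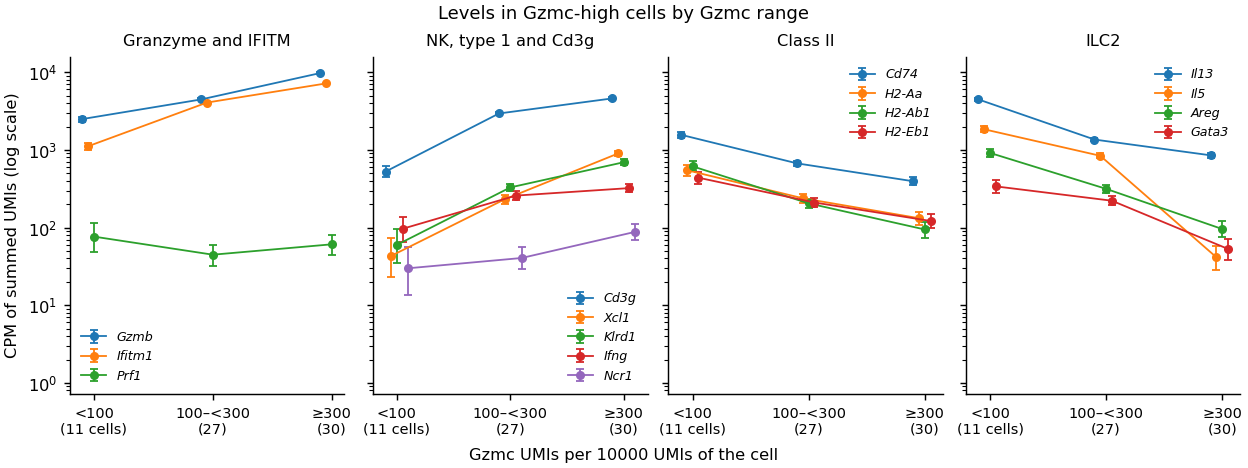
Levels of 16 genes in CPM of summed UMIs (vertical axis, log scale) in Gzmc-high cells with under 100, 100 to under 300 and 300 or more Gzmc UMIs per 10000 (horizontal axis; 11, 27 and 30 cells). Points are levels and bars exact Poisson 95% intervals; Gzmb, Ifitm1, Cd3g, Xcl1 and Klrd1 are highest in the highest range, and the 4 class II and 4 ILC2 genes are lowest there.

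Most, but not all, cells with class II genes carried NK receptors. Of the 25 members in which class II genes were counted, 22 also had NK genes, as did 31 of the 39 others, and Klrd1 stood at 625 CPM in the former and 328 in the latter. A set of 5 of the 25, at 13124 to 22820 UMIs, had no UMI of Klrd1, Xcl1 or Ifng, and included 3 of the 5 members with the highest H2-Aa. In these 5 cells H2-Aa stood at 1998 CPM and Cd74 at 5293, against 463 and 1001 in the other 20. Tyrobp was at 0 and Ifitm1 at 11.7 CPM, but Fcer1g stood at 1905 CPM and Cd160 at 643, and all 5 met the NK count at 2000 UMIs, whose 12 genes include Fcer1g and Cd160. Cd7, an immunoglobulin superfamily receptor of T, NK and innate lymphoid cells, stood at 704 CPM in all 25 members with class II genes and at 206 in the 39 others. Gzmb stood at 3449 CPM in members with class II genes and at 7572 in the others, Ifitm1 at 3892 and 5273, and Gata3 at 137 and 193.

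The cells also lay near each other when Gzmc was left out. With 10 Gzm genes left out, neighbours were found from 2000 variable genes and 30 principal components. A median of 16 of the 20 nearest neighbours of a member were members. The mean share was 67.2%, against 0.57% around other cells and 2.35% of the library. With the granule, NK, type 1, T cell and class II lists removed too, 122 genes in all, the mean was 62.6% against 0.74%. Of the 68 cells 47 had at least 10 member neighbours in the first setting and 45 in the second.

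NK-list cells of the fresh libraries give a side-by-side view. A cell was counted as an NK-list cell where it held UMIs of at least 3 of 8 genes (Ncr1, Klrb1c, Tbx21, Eomes, Klre1, Klra8, Klrd1 and Klrk1), without thinning. The naïve library held 86 such cells of 6392 (1.35%, 1.08 to 1.66%), the ta-non-activated libraries 5 of 1823 and 4 of 1601, the week 2 culture 33 of 2895 (1.14%, 0.786 to 1.60%) and the week 3 culture 0 of 3822, which allows up to 0.0785% (3 cells). In the week 2 culture 32 of the 33 were Gzmc-high (97.0%), while 47.1% of the Gzmc-high cells met this count. Libraries differ in depth, with medians of 4533 UMIs per cell in the naïve library and 13636 in the week 2 culture, so the shares are not at equal depth.

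Genes that did not choose the NK-list cells differed between libraries. Gzmc stood at 7.02 CPM in the naïve NK-list cells and at 384 in the 5 of week 2 ta-non-activated, all of the latter from 1 cell. Gzma stood at 785 CPM in naïve NK-list cells, with UMIs in 12 of 86, and Ccl5 at 3545, against 2.46 and 3.44 in the Gzmc-high cells. Ifitm1 stood at 146 CPM in naïve and 1153 in week 2 ta-non-activated NK-list cells, in each case from 1 cell, against 4808 with UMIs in 60 of 68 cells. Fcer1g, Tyrobp, Xcl1 and Ifng were closer, at 1010, 448, 820 and 195 CPM in naïve NK-list cells. Tbx21, which was 1 of the 8 genes, stood at 253 CPM in those cells and at 4.92 in the Gzmc-high cells, and Gata3 at 183 and 175. The naïve library differs from the week 2 culture in tumour, culture, depth and Cell Ranger version, which cannot be told apart here, while the ta-non-activated libraries were counted with the same version as the culture.

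**Figure D5:**
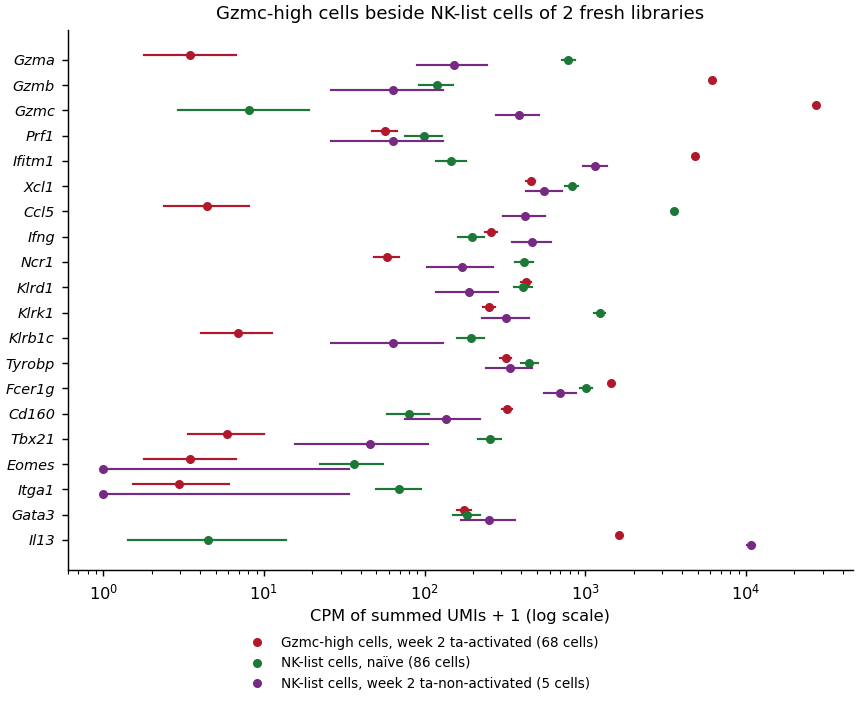
Levels of 20 genes (vertical axis) in CPM of summed UMIs plus 1 (horizontal axis, log scale) in the 68 Gzmc-high cells, 86 NK-list cells of the naïve library and 5 of the week 2 ta-non-activated library. Dots are levels and lines exact Poisson 95% intervals; Ncr1, Klrb1c, Tbx21, Eomes, Klrd1 and Klrk1 were used to choose the NK-list cells, and Gzma, Ccl5 and Tbx21 lie far lower in the Gzmc-high cells while Gzmb, Gzmc and Ifitm1 lie far higher.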

How the data were processed

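The study read single-cell RNA of ILC2s in 5 libraries. The authors aligned reads with Cell Ranger and deposited raw UMI counts per gene and barcode, without normalization. By the matrix headers, Cell Ranger 6.0.0 was used for naïve cells and 3.0.2 for the other libraries. The submitters' processing notes name GRCm38. The annotation used for counting is not given in the sources used here. Gene positions are from GENCODE M21 on GRCm38.

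Of 3579 barcodes in the week 2 ta-activated library, 2895 passed the limits on genes and mitochondrial counts, and 11 other barcodes passed the Gzmc threshold but not these limits. The library held 68919437 UMIs and the kept cells 57352180. Counts were summed over cells and compared as CPM with 1 CPM added, and shares of cells used random thinning to 2000 UMIs. The summed comparison was also run on simulated data, and no result given here rests on that run. Named genes were the 15 highest and 15 lowest ratios among genes past the level limit with UMIs in at least 25% of the thinned cells of the higher group, the 4 markers and members of the fixed lists. Ranking genes by their ratio between the highest and lowest Gzmc range gave no usable order, since many genes had no UMI in the 11 lowest cells. The members and lists were chosen with earlier results of these data known. Cd244a and Ifi30 were not matched, and results on some list genes are not reported here. Python 3.11.15, numpy 2.4.6, scipy 1.17.1, pandas 2.3.3, scikit-learn 1.9.0, scanpy 1.11.5 and matplotlib 3.10.9 were used. Alternatives changed the threshold, filters, depth, pseudocount, level limit, averaging, totals and compared cells.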

Additional observations from a re-analysis of the deposited data

How the results depend on the processing

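Over 90 alternatives of 8 results, which are counts and shares and so have no direction to reverse, 70 stayed close to the reported value and 20 moved. A count was taken as close within 1.5 times the reported one, and a share or ratio inside the 95% interval of the reported value, which for ratios came from the Poisson intervals of both groups and is narrow for abundant genes. For 32 named genes 378 of 448 ratios stayed close, 70 moved and 0 reversed. With means over cells in place of sums, 413 genes were at least 2-fold higher and 385 lower. With a level limit of 5 CPM the counts were 514 and 414, and with no limit 863 and 835. A threshold of 100 Gzmc UMIs per 10000, chosen after seeing the data, gave 261 and 277. Without thinning, Gzmc-high cells met the cell cycle count in 78.1%, NK in 98.4%, class II in 70.3%, T cell in 96.9% and ILC2 in 60.9%. At 1000 UMIs the cell cycle share was 36.9%, NK 56.9% and T cell 50.8%. At 5000 UMIs NK was 93.7%, T cell 88.9% and ILC2 33.3%. With 1 gene more required, NK was 53.1%, class II 20.3% and T cell 39.1%. The ILC2 share was 21.5% at 1000 UMIs and 17.2% with 1 gene more. Among ratios, means over cells gave -2.59 for Ikzf3 and -2.34 for Ltb4r1, against -1.98 and -1.73.

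No paired analysis was possible because each condition and week has 1 library. Intervals cover counting error in 1 library of pooled mice. At the depth of the 68 cells 3 UMIs equal 1.48 CPM, so genes near that level were not detectable beyond counting error.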
